A study of Mus musculus with 3 samples.

Results

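Neutrophils of mouse peripheral blood were taken from 3 droplet libraries of untreated leukocytes where they were chosen by raw UMI counts of 11 transcripts (a UMI is a molecular tag that counts a captured molecule once). A barcode with at least 200 genes was a member when Csf3r, Cxcr2, Mmp9 and Il1r2 together had 5 or more UMIs (the gate sum), Csf1r had 1 or fewer, the B cell genes Cd79a, Cd79b and Ms4a1 had 2 or fewer together, and the T cell genes Cd3e, Cd3d and Cd3g had 1 or fewer together. This gave 1966 neutrophils of 22688 barcodes, with 1259 of 11004 in replicate 1, 354 of 5051 in replicate 2 and 353 of 6633 in replicate 3. They were compared with 9793 gated B cells, with 6291 gated T cells and with all 20722 other barcodes.

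Neutrophils are short-lived granulocytes that are made in the bone marrow and leave it under the control of G-CSF and of the receptors Cxcr2 and Cxcr4. They kill microbes with granule proteins, which are made in order as the cell matures, and with oxidants from the NADPH oxidase. Calprotectin, the dimer of S100a8 and S100a9, fills their cytosol, and their segmented nucleus rests on the lamin B receptor.

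All 3 libraries came from blood of mice that the labels give as male and untreated, at 8, 9 and 10 weeks of age with 1 library per age, and the part of age cannot be told apart from that of the library. Red cells were lysed, nucleated events were sorted after DAPI and Draq5 staining, and the cells were fixed before probe-based capture in a multiplexed kit. The labels do not say that the libraries are from separate animals, so p-values may measure only technical spread between these samples.

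The libraries held 45718031, 19591648 and 23443660 UMIs, of which the neutrophils held 3625024, 968553 and 913721. Cell barcodes recurred between libraries 232 times in all, and 1 of these was a neutrophil in both. Replicate 2 stood apart by red cell transcripts in every class: haemoglobin genes took 2.42% of neutrophil UMIs there, against 0.0752% in replicate 1 and 0.637% in replicate 3, and 2.94% of the UMIs of its B cells.

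The markers of the cell type were present in nearly every member. S100a8 was found in 97.9%, 98.3% and 99.4% of the members of replicates 1, 2 and 3, with a median of 142, 114 and 133 UMIs per cell. S100a9 had medians of 144, 125 and 134. Retnlg, which encodes a secreted resistin-like protein, had medians of 5, 10 and 5 and a UMI in 86.3%, 91.5% and 86.1% of members. These 3 genes had no part in the gate. Among the gated transcripts, which are given as a description, Csf3r (the G-CSF receptor) had medians of 33, 31 and 32 UMIs, Mmp9 (a gelatinase) of 12, 10 and 10, Cxcr2 of 8, 7 and 8, and Il1r2 (the interleukin-1 decoy receptor) of 0, with a UMI in 39.4%, 37.3% and 37.7%.

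The lower edge of the gate held a second kind of cell. Of the 22 members with a gate sum of 5 to 6, 14 had no UMI of S100a8 or S100a9 and 16 had 5 or more UMIs of basophil markers such as Mcpt8, Fcer1a and Ms4a2. Of the 28 barcodes just outside, with a gate sum of 3 to 4 and all other limits met, 18 had no calprotectin UMI and 21 had 5 or more basophil UMIs. Over gate sums of 5 to 14 these counts were 26 and 34 of 58. Among the 1887 members with a gate sum of 20 or more they were 2 and 0. The members thus hold a small admixture of barcodes with basophil transcripts.

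The Csf1r limit ran through neutrophil-type barcodes. Csf1r encodes the receptor of the monocyte growth factor M-CSF. Csf1r was counted in barcodes with a gate sum of 20 or more that met the lymphocyte limits. These had at most 5 UMIs over the 9 other monocyte markers. A Csf1r UMI was present in 60.3%, 60.5% and 63.2% of them, against 0.777%, 0.220% and 0.365% of B cells. The B cell gate itself allowed at most 1 Csf1r UMI, so B cells with more are not in that share. The Csf1r limit of the neutrophil gate left out 479, 123 and 122 of the barcodes with the high gate sum, 724 in all. They had a median of 289, 334 and 292 calprotectin UMIs, beside 296, 258 and 280 in the members with the same gate sum, and median depths of 2849, 2870 and 2861.5 UMIs beside 2800, 2700 and 2614. Between these members and the barcodes left out, edgeR's quasi-likelihood test with Benjamini-Hochberg adjustment, added after these values were seen and run without the gate genes and monocyte markers, called 1 of 6039 genes higher in members (0.0166%) and 0 lower (0%), with 254 at an unadjusted p under 0.05. The gene called, Ltf, rests on a single barcode described below. All other barcodes, the second group of comparison, include the barcodes left out.

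**Figure D1:**
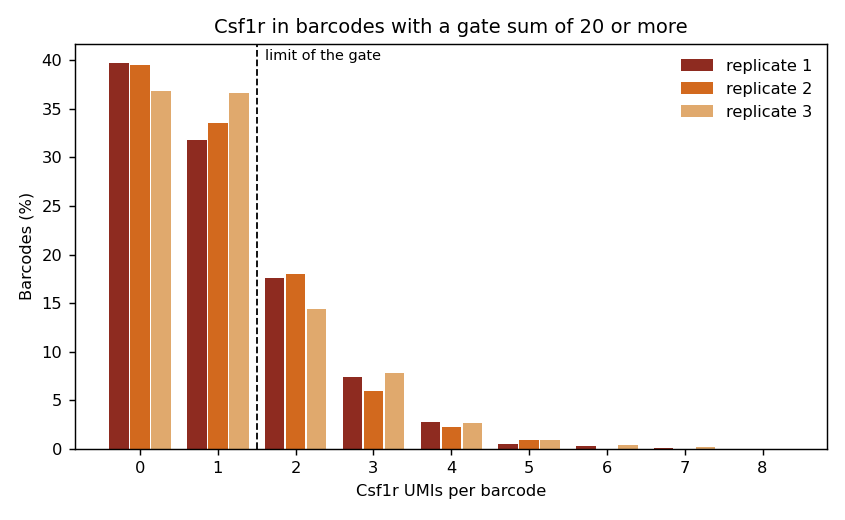
Share of barcodes (y axis, percent) by their number of Csf1r UMIs (x axis) in each of 3 libraries, over barcodes with a gate sum of 20 or more that met the lymphocyte limits and had at most 5 UMIs of other monocyte markers. The dashed line is the limit of the gate. Shares decline without a gap across it, from 31.8% at 1 UMI to 17.6% at 2 UMIs in replicate 1, and 1 barcode of replicate 3 with over 8 UMIs is not drawn.

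Transcripts of other cell types were low but uneven between libraries. Over 10 monocyte markers the neutrophils summed to 498, 405 and 383 CPM (counts scaled to a fixed total per library), and over 10 B cell markers to 500, 576 and 525. In replicates 1, 2 and 3, 49, 4 and 6 members had 5 or more monocyte marker UMIs. For B cell markers these counts were 69, 19 and 12. NK cell markers summed to 312 CPM in replicate 1, where 16 members had 5 or more of their UMIs, and to 3.10 and 2.19 CPM in replicates 2 and 3, where none had. Platelet markers summed to 78.3, 389 and 204 CPM. Scrublet, a doublet caller, marked 14, 1 and 0 neutrophils, which were kept.

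Neutrophils made up 11.4% of barcodes in replicate 1 (exact 95% Clopper-Pearson interval 10.9 to 12.1), 7.01% in replicate 2 (6.32 to 7.75) and 5.32% in replicate 3 (4.79 to 5.89), a mean of 7.92% ± 3.16 (SD, n = 3). The intervals cover counting error only and do not overlap, so the libraries differed by more than that error. With a gate sum of 20 or more the shares were 11.1%, 6.59% and 5.08%. When the Csf1r limit was also replaced by the limit on other monocyte markers, they were 15.3%, 9.03% and 6.92%. At the gate sum of 5 or more, barcodes in which haemoglobin genes took over 1% of UMIs were also removed in a separate run. This left 2046 of 5051 barcodes in replicate 2. The shares were then 11.4%, 12.5% and 5.38%, so replicate 2 moved from below replicate 1 to above it. The cut fell unevenly in replicate 2, where 27.7% of neutrophils and 61.9% of all other barcodes were over it. The share after the cut thus depends on this unequal removal as well.

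In every library neutrophils had fewer UMIs and fewer genes at the median than lymphocytes, as counted by probe capture within these gates. Their median depth was 2810, 2671.5 and 2589 UMIs, below 3231, 3206 and 3079 in B cells and 3898, 3897 and 3552 in T cells. The median number of genes was 1274, 1228.5 and 1195, against 1933, 1883 and 1851 in B cells. At these depths the neutrophils had 456 to 462 genes per 1000 UMIs and the B cells 593 to 602. The library medians of neutrophils lay below those of B and T cells in both UMIs and genes, while the depths of single cells overlapped between classes.

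A few genes took much of the neutrophil transcript pool. S100a8 and S100a9 together took 10.9%, 10.8% and 11.5% of UMIs, and the 10 most abundant genes took 17.6%, 18.9% and 18.4%, against 7.77% to 9.70% in B cells and 4.76% to 6.05% in T cells. In order of UMIs, which reflects the probes of each gene as well as its transcripts, S100a9 (5.62% ± 0.201, SD, n = 3) and S100a8 (5.47% ± 0.222) came first. Tmsb4x (the actin-binding thymosin beta 4) took 1.99% ± 0.154, the gate gene Csf3r 1.19% ± 0.0757, Tyrobp (the signalling adaptor of many myeloid receptors) 0.940% ± 0.0594 and S100a11 0.696% ± 0.0249. S100a8 and S100a9 took at most 0.0191% each of the UMIs of B or T cells in any library.

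The 250 bases upstream of the starts of S100a8, S100a9 and Retnlg are shown. These 3 genes were chosen because, after haemoglobin, they had the greatest variance over mean between cells, described below. S100a8 and S100a9 also moved together in single cells. The bases are from RefSeq on GRCm38.p6 and read 5′ to 3′ on the strand of the gene. Capitals mark matches on either strand to TTGCNNAA, a form of the C/EBP site, to GAGGAAG, a form of the PU.1 site, and to TATAAA. Of 32851 upstream regions of the same length, 9.56%, 10.6% and 12.4% hold these letters, and no match says only that the letters are not in this window.
S100a8 at chr3:90668821-90669070, plus strand: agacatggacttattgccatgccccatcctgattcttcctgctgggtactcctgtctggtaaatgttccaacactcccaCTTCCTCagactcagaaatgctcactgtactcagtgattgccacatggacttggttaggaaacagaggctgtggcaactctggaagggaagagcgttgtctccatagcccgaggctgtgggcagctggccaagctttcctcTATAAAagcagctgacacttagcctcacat
S100a9 at chr3:90695722-90695971, minus strand: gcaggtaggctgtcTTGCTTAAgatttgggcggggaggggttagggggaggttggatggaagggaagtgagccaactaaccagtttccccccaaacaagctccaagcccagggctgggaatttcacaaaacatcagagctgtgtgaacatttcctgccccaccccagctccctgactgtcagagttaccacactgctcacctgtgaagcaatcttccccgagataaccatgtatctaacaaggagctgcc
Retnlg at chr16:48872358-48872607, plus strand: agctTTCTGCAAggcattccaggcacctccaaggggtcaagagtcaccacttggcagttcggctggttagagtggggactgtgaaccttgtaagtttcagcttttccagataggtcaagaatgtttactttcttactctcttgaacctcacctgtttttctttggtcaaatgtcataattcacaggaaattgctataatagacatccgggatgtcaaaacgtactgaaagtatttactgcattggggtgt
The S100a8 region held 1 PU.1 match and 1 TATAAA match, the latter near its 3′ end, and the S100a9 and Retnlg regions held 1 C/EBP match each. No other match to these letters was present.

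The gate used 11 transcripts of the same cells, so the tests describe what else goes with that gate, and these transcripts were left out of them. The other genes were tested on UMI sums per library and class, with the library as a block, by edgeR's quasi-likelihood test with Benjamini-Hochberg adjustment at 0.05, against the mean of B and T cells on the log scale. A gene held by B or T cells alone has a smaller fold in that contrast. Levels are in scaled CPM: the factor of TMM, edgeR's composition scaling, divides each CPM (0.608 to 0.634 in neutrophils), so they exceed plain CPM there. Each log2 value is the difference neutrophils minus lymphocytes. Neutrophils had a higher level of 3761 genes (35.9% of the 10481 tested) and a lower level of 4832 (46.1%), with a median log2 of -0.31. With plain library totals the split was 2000 higher and 7424 lower and the median -1.35, so directions below hold relative to that shift, and a list is given under both scalings where either count moves by 3 or more.

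Against all other barcodes 3636 of 11003 genes were higher (33%) and 4731 lower (43%), with a median log2 of -0.34. With plain totals these counts were 1657 and 7854. With a gate sum of 20 or more they were 3329 and 5109, and 3704 and 4901 against lymphocytes. At that gate the counts of members called in a list moved by at most 2 against lymphocytes: chemoattractant receptors were higher in 14 of 18, adhesion genes in 16 of 24, Fc, CD300 and Siglec receptors in 21 of 24 and mediators in 20 of 25. The shares called were high in both comparisons, so counts of list members below are to be read against them. The filter on low counts also kept genes with UMIs almost only in neutrophils, such as Stfa1, or almost only in lymphocytes, such as Kynu. Such a gene could be called only in the direction of the side that held it. The list counts include members of this kind, which were not counted apart.

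**Figure D2:**
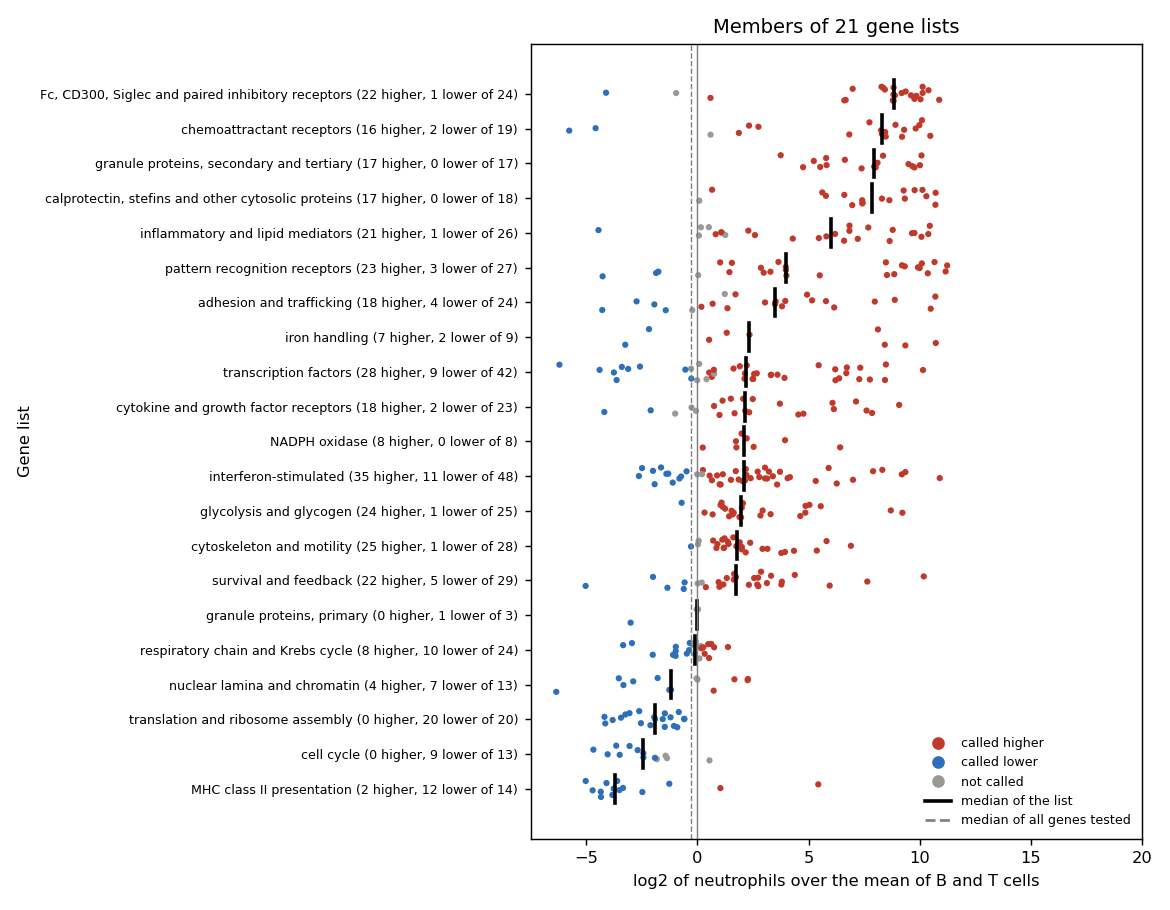
Difference between neutrophils and the mean of B and T cells (x axis, log2) for each tested member of 21 gene lists (y axis), with 1 dot per gene, coloured by the call of edgeR's test, and the median of each list as a bar. Receptor, granule and cytosolic protein lists lie to the right of the median of all genes (-0.31), and the translation, cell cycle and MHC class II lists to its left.

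Genes of the secondary and tertiary granules, which store lactoferrin, gelatinase and other proteins in late-maturing cells, were higher in 17 of 17 tested members (median log2 7.95). Hp, which encodes haptoglobin, stood at 5393, 5216 and 6000 scaled CPM in replicates 1, 2 and 3, against at most 6.80 in any B or T cell sum (log2 10.08, SE 0.08, adjusted p = 2.56e-31). Arg2, which is in this list although it encodes a mitochondrial arginase, stood at 557, 545 and 629 scaled CPM against at most 1.30 (log2 10.01, SE 0.11, adjusted p = 5.59e-29). The protease inhibitor Slpi stood at 7438, 6449 and 8050, the iron-sequestering lipocalin Lcn2 at 2060, 2872 and 1874, and the collagenase Mmp8 at 1395, 1280 and 1122 scaled CPM. In all 5 genes the neutrophil sums lay far above every lymphocyte sum.

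A part of this list rested on a handful of barcodes. Ltf (lactoferrin) stood at 38.1, 873 and 8.64 scaled CPM, Camp (the cathelicidin peptide) at 33.6, 1265 and 8.64, and Ngp (neutrophilic granule protein) at 99.4, 1633 and 29.4. In replicate 2, 1 barcode with 15381 UMIs held 483 of 532 Ltf UMIs, 738 of 771 Camp UMIs and 863 of 995 Ngp UMIs. The same barcode had 115 Chil3, 564 Lcn2, 2361 S100a8 and 2372 S100a9 UMIs, but only 8 Csf3r and 2 Cxcr2 UMIs and none of Mki67, Mpo or Elane. Over all members, 8 of 1966 barcodes had 10 or more UMIs of Ltf, Camp and Ngp together, 3 in replicate 1, 5 in replicate 2 and 0 in replicate 3, and they held 97.4% of these UMIs in replicate 2 and 66.6% in replicate 1. Without replicate 2 the log2 of Ltf was 3.65 in place of 5.81 and that of Camp 2.79 in place of 5.52, and both still passed the test. These barcodes were picked out after their values were seen.

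Genes of the primary granules, which are made at the promyelocyte stage, were near the floor. Of 8 genes in the matrices 3 passed the filter on low counts, 0 were higher and 1 was lower, and at an unadjusted p under 0.05 edgeR's test found none higher. Without replicate 2, 5 genes were tested and 2, Prtn3 and Elane, were higher and 2 lower, and without replicate 3 or without the filter 1, Prtn3, was higher. These 2 genes are named after their values were seen. The lower gene, Ctsc, an activator of granule proteases, stood at 30.9, 19.7 and 8.64 scaled CPM against 300.4 to 321 in B cells and 117 to 125 in T cells (log2 -3.01, SE 0.15, adjusted p = 4.29e-14). The neutrophil sums held 6 Mpo and 8 Elane UMIs in all 3 libraries.

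Calprotectin, the stefins and other abundant cytosolic or secreted proteins were higher in 17 of 18 tested members (median log2 7.86). S100a8 (ENSMUSG00000056054) stood at 89725, 83486 and 89960 scaled CPM against 37.3 to 74.2 in B cells and 38.6 to 73.8 in T cells (log2 10.70, SE 0.19, adjusted p = 8.28e-17). S100a9 (ENSMUSG00000056071) stood at 89350, 88910 and 92085 against 78.4 to 148 in lymphocytes (log2 9.77, SE 0.16, adjusted p = 1.54e-23). Retnlg (ENSMUSG00000022651) stood at 6172, 9207 and 5554 against 7.77 to 15.2 (log2 9.28, SE 0.10, adjusted p = 9.65e-22), with replicate 2 the highest. Padi4, which citrullinates histones, stood at 1046, 907 and 908 against at most 2.98. Stfa1, a stefin protease inhibitor, had 99 UMIs in neutrophils and 0 in lymphocytes, at least 718-fold higher on pooled scaled CPM with a floor of 3 counts over the group, and its close paralogs make the split between stefins uncertain. The member that did not pass, S100a4, had 36.8, 37.7 and 17.3 scaled CPM (log2 0.08, adjusted p = 0.651), and with a gate sum of 20 or more it was lower (log2 -1.56, adjusted p = 2.39e-06).

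**Figure D3:**
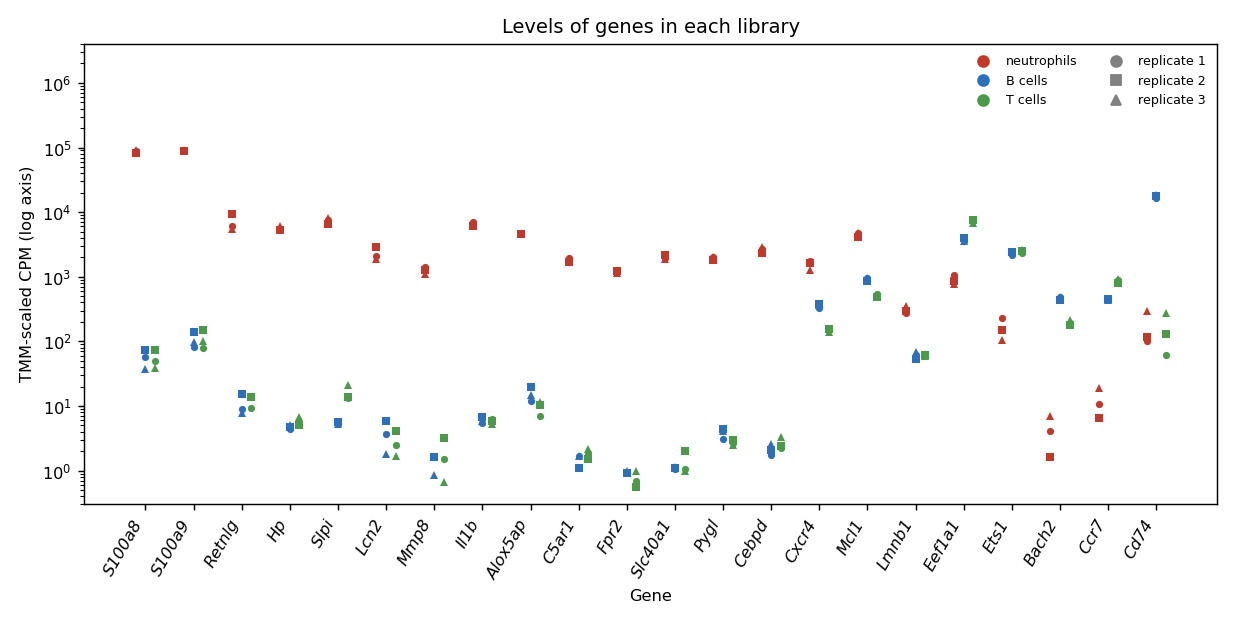
Levels of 22 genes (x axis) in TMM-scaled CPM (y axis, log scale), with 1 point per library and class. Points of the 3 libraries lie close together for most genes, and S100a8 spans 83486 to 89960 in neutrophils and 37.3 to 74.2 in B cells.

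Receptors that guide neutrophils to sites of infection were higher in 16 and lower in 2 of 19 tested members (median log2 8.29). Fpr2, a receptor of bacterial formyl peptides, stood at 1207, 1244 and 1127 scaled CPM against at most 0.995 in lymphocytes (log2 10.47, SE 0.09, adjusted p = 1.59e-30). The complement C5a receptor C5ar1 stood at 1929, 1684 and 1893 against at most 2.16 (log2 10.10, SE 0.09, adjusted p = 1.59e-30), and the chemokine receptor Ccr1 at 981, 1093 and 1158 against at most 4.13. Cxcr4, which holds cells in the marrow, was also higher, at 1736, 1633 and 1252 against 326 to 376 in B cells and 141 to 156 in T cells (log2 2.74). The lower members were the lymphoid homing receptors Ccr7 (10.9, 6.56 and 19.0 scaled CPM, log2 -5.77, SE 0.15, adjusted p = 1.46e-21) and Cxcr5 (5.90, 3.28 and 12.1, log2 -4.58, SE 0.21, adjusted p = 3.31e-15).

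Receptors of cytokines and growth factors were higher in 18 and lower in 2 of 23 tested members (median log2 2.15), with 15 and 5 on plain totals and 4 lower without replicate 1. Il13ra1, a chain of the receptors of interleukins 4 and 13, stood at 510, 455 and 608 scaled CPM against at most 1.06 in lymphocytes (log2 9.07, SE 0.10, adjusted p = 4.27e-29). Csf2rb2, a beta chain of the interleukin-3 receptor that closely resembles Csf2rb, stood at 113, 67.3 and 79.5 (log2 7.86, SE 0.25, adjusted p = 1.56e-19), and the TNF receptor Tnfrsf1a at 1690, 1638 and 1604 against 1.15 to 4.03 in B cells and 51.9 to 61.9 in T cells. The lower members were Il6st, the gp130 chain of the interleukin-6 receptor, at 5.45, 6.56 and 3.46 scaled CPM against 321 to 334 in T cells (log2 -4.19, SE 0.27, adjusted p = 6.67e-10), and Il7r, the interleukin-7 receptor of T cells. Il7r stood at 17.3, 1.64 and 5.19 in neutrophils, which overlaps 3.19 to 4.38 in B cells, and at 687 to 777 in T cells (log2 -2.10, SE 0.32, adjusted p = 0.000123).

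Genes of adhesion and trafficking were higher in 18 and lower in 4 of 24 tested members (median log2 3.48), with 15 and 7 on plain totals. Ceacam10 stood at 135, 118 and 98.5 scaled CPM with 5 UMIs in all lymphocytes (log2 10.70, SE 0.29, adjusted p = 4.08e-21), and the sialic acid receptor Cd33 at 2121, 1823 and 1979 (log2 10.49, SE 0.10, adjusted p = 2.30e-30). The integrin chain Itgam stood at 1717, 1618 and 1554 against at most 10.5. S1pr1, the receptor by which lymphocytes leave lymphoid organs, was lower at 25.9, 19.7 and 34.6 against 408 to 692 in lymphocytes (log2 -4.28, SE 0.12, adjusted p = 7.56e-21), as was the endothelial adhesion molecule Pecam1 (44.0, 47.6 and 31.1, log2 -2.74).

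All 8 tested subunits of the NADPH oxidase were called higher (median log2 2.10), and with plain totals 7 were higher and 1 lower. The cytosolic subunit Ncf1 stood at 2253, 1730 and 1926 against 434 to 484 in B cells (log2 3.94, SE 0.17, adjusted p = 4.49e-06). The membrane subunit Cybb had only 130, 238 and 69.1 scaled CPM, within or below the 188 to 241 of B cells, and T cells had 2.25 to 4.14 (log2 2.53). B cells also express this oxidase, as background.

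Pattern recognition receptors were higher in 23 and lower in 3 of 27 tested members (median log2 4.00). Nlrp12, a NOD-like receptor, stood at 1136, 1045 and 1084 scaled CPM against at most 0.690 in lymphocytes (log2 11.23, SE 0.11, adjusted p = 3.64e-30). The C-type lectin Clec4d stood at 2342, 2089 and 2406 (log2 11.16, SE 0.10, adjusted p = 1.18e-30), and the inflammasome sensor Nlrp3 at 766, 660 and 672 (log2 10.36). Pycard, the adaptor that links such sensors to caspase-1, was lower at 47.2, 34.5 and 29.4 against 90.9 to 98.6 in B cells and 231 to 244 in T cells (log2 -1.86, SE 0.12, adjusted p = 2.32e-13). Tlr1, a receptor of bacterial lipopeptides, was lower at 2.72, 11.5 and 8.64 against 68.3 to 151 (log2 -4.27, SE 0.24, adjusted p = 4.60e-13).

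Fc, CD300, Siglec and paired receptors, which set the threshold of activation, were higher in 22 and lower in 1 of 24 tested members (median log2 8.82). Sirpb1b stood at 604, 761 and 607 scaled CPM (log2 10.87, SE 0.11, adjusted p = 6.33e-30), although near-identical Sirpb1 copies make the split uncertain. The inhibitory receptor Pilra stood at 1056, 939 and 1132 (log2 10.39, SE 0.11, adjusted p = 2.38e-27) and the adaptor Tyrobp at 15955, 13856 and 15466 (log2 8.43, SE 0.29, adjusted p = 8.36e-07). The lower member was Cd22, the inhibitory Siglec of B cells, at 3.63, 3.28 and 6.91 against 751 to 769 in B cells and 4.28 to 13.6 in T cells (log2 -4.11, SE 0.71, adjusted p = 0.00446). Without replicate 2 it did not pass (log2 -4.01, adjusted p = 0.0683).

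Inflammatory and lipid mediators were higher in 21 and lower in 1 of 26 tested members (median log2 5.99), with 18 higher and 4 lower on plain totals. Il1b, the fever cytokine, stood at 6995, 6137 and 6166 scaled CPM against at most 6.66 in lymphocytes (log2 10.08, SE 0.08, adjusted p = 3.64e-31). Its natural antagonist Il1rn stood at 574, 558 and 519 (log2 10.45, SE 0.12, adjusted p = 1.12e-28), and Hdc, which makes histamine, at 870, 945 and 845 (log2 10.38, SE 0.10, adjusted p = 3.64e-30). Hdc is also expressed by basophils, and with a gate sum of 20 or more its log2 was 10.36. Alox5ap, the partner of 5-lipoxygenase in leukotriene synthesis, stood at 4830, 4554 and 4647. The death ligand Tnfsf10 had 2 UMIs in neutrophils, and the pooled lymphocyte level was 28.4 times as high (exact 95% interval 7.84 to 235).

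Among transcription factors, 28 were higher and 9 lower of 42 tested (median log2 2.18), with 25 and 15 on plain totals. Cebpd, of the C/EBP family that drives granule genes, stood at 2670, 2342 and 2887 scaled CPM against at most 3.32 in lymphocytes (log2 10.14, SE 0.09, adjusted p = 1.18e-30). Atf3, a stress-response factor, stood at 190, 151 and 182 (log2 8.48, SE 0.22, adjusted p = 2.26e-18), Cebpe, the factor of late granule genes, at 134, 107 and 89.9, and Spi1, which encodes PU.1, at 2090, 1964 and 1993 against 128 to 139 in B cells. Gfi1, a transcriptional repressor, stood at 2.72, 4.92 and 1.73 and was not called. The lower factors with the greatest change were the lymphoid regulators Bach2 (4.09, 1.64 and 6.91 scaled CPM against 178 to 494, log2 -6.21, SE 0.18, adjusted p = 1.21e-20) and Ikzf3 (31.3, 16.4 and 12.1 against 256 to 1027, log2 -4.40, SE 0.15, adjusted p = 2.08e-16).

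Genes of survival and feedback control were higher in 22 and lower in 5 of 29 tested members (median log2 1.73), with 18 and 8 on plain totals. The members split within the BCL2 family. Mcl1, the survival factor on which neutrophils depend, stood at 4834, 4194 and 4769 scaled CPM against 874 to 963 in B cells and 481 to 537 in T cells (log2 2.74). Bcl2 itself stood at 15.9, 6.56 and 0 against 234 to 564 in lymphocytes (log2 -5.03, SE 0.26, adjusted p = 6.04e-08). Tnfaip2, a TNF-induced gene, stood at 2048, 1941 and 1817 (log2 10.18, SE 0.10, adjusted p = 3.64e-30), and the phosphatase Dusp1, which turns off MAP kinases, at 4529, 2968 and 3359 (log2 7.64, SE 0.07, adjusted p = 3.64e-30). Casp8, the initiator caspase of death receptors, was lower at 33.6, 21.3 and 22.5 against 94.6 to 137 scaled CPM.

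Interferon-stimulated genes went both ways, with 35 higher and 11 lower of 48 tested (median log2 2.09), and 27 and 17 on plain totals. Their summed level was 20670, 23793 and 20139 scaled CPM in neutrophils, 2447 to 2957 in B cells and 3838 to 4178 in T cells. Slfn4, a myeloid Schlafen gene, stood at 1655, 2342 and 1672 against at most 1.43 (log2 10.90, SE 0.15, adjusted p = 7.41e-16), and Ifitm1, a membrane protein that blocks virus entry, at 2115, 1990 and 1936 (log2 9.35, SE 0.09, adjusted p = 4.39e-30). The lower members included Ifit1bl1 (6.81, 8.20 and 3.46 against 73.1 to 99.1 in T cells, log2 -2.63) and the GTPase gene Gbp3 (8.17, 6.56 and 12.1 against 55.5 to 62.5 in B cells and 16.1 to 22.7 in T cells).

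Iron handling genes were higher in 7 and lower in 2 of 9 tested members (median log2 2.34). Slc40a1, the iron exporter ferroportin, stood at 1961, 2159 and 1902 scaled CPM against at most 2.05 in lymphocytes (log2 10.72, SE 0.10, adjusted p = 1.59e-30). Slc11a1, the metal pump of phagosomes, stood at 709, 548 and 792 (log2 9.35, SE 0.12, adjusted p = 5.66e-24). The genes of iron uptake were the lower ones: the transferrin receptor Tfrc stood at 4.54, 4.92 and 3.46 against 13.6 to 23.6 (log2 -2.18, SE 0.33, adjusted p = 1.39e-06), and the importer Slc11a2 at 5.45, 1.64 and 1.73 against 20.9 to 73.8 (log2 -3.25, SE 0.27, adjusted p = 4.78e-11).

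Glycolysis, glycogen and pentose phosphate genes were higher in 24 and lower in 1 of 25 tested members (median log2 1.96), with 18 and 3 on plain totals. Pygl, a glycogen phosphorylase, stood at 1999, 1839 and 1986 scaled CPM against at most 4.47 in lymphocytes (log2 9.22, SE 0.09, adjusted p = 3.64e-30), the hexokinase Hk3 at 480, 496 and 470 (log2 8.70, SE 0.10, adjusted p = 9.66e-29), and Pgd of the pentose phosphate pathway at 1916, 1816 and 1891 against 61.5 to 68.8. Pfkl, a phosphofructokinase, was the lower member at 45.4, 36.1 and 39.8 against 59.7 to 82.1 (log2 -0.71). Genes of the respiratory chain and Krebs cycle split into 8 higher and 10 lower of 24 tested (median log2 -0.13). This is near the split of all tested genes, 35.9% higher and 46.1% lower. With plain totals the list split into 1 and 23, so its direction depends on the scaling. Mdh2 was higher (186, 149 and 164 against 56.2 to 79.4, log2 1.37), and the fumarase Fh1 (7.72, 4.92 and 1.73 against 33.5 to 112, log2 -3.34) and Idh3a (7.72, 4.92 and 0 against 32.7 to 61.9, log2 -2.95) were lower under both scalings. Cox5b was higher with TMM scaling (log2 0.75) and lower with plain totals (log2 -0.29).

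Translation and ribosome assembly genes were lower in 20 of 20 tested members (median log2 -1.93), and in 20 of 20 with plain totals. The elongation factor Eef1a1 stood at 1054, 845 and 771 scaled CPM against 3542 to 3978 in B cells and 6882 to 7640 in T cells (log2 -2.54). The nucleolar genes Fbl (5.45, 3.28 and 5.19 against 64.5 to 128, log2 -4.18, SE 0.21, adjusted p = 1.94e-15) and Dkc1 (5.90, 1.64 and 0 against 56.8 to 91.6, log2 -4.15, SE 0.26, adjusted p = 4.94e-13) were the members with the greatest change. Cell cycle genes were lower in 9 and higher in 0 of 13 tested members (median log2 -2.43), with 12 lower on plain totals, and at an unadjusted p under 0.05 edgeR's test found no member higher. The helicase subunits Mcm5 (1.82, 3.28 and 0 against 26.1 to 33.1) and Mcm3 (3.63, 6.56 and 1.73 against 40.7 to 62.1) were lower, with log2 of -4.04 and -3.66.

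Genes of the nuclear lamina and chromatin went both ways, with 4 higher and 7 lower of 13 tested (median log2 -1.19). Over all tested genes the shares were 35.9% higher and 46.1% lower, so these counts do not set the list apart. Lbr, the lamin B receptor, whose loss leaves neutrophil nuclei without lobes, stood at 1449, 1492 and 1435 scaled CPM against 274 to 282 in B cells and 329 to 345 in T cells (log2 2.26, SE 0.06, adjusted p = 1.71e-21). Lmnb1, a lamin, stood at 272, 299 and 349 against 53.3 to 69.2 (log2 2.27, SE 0.08, adjusted p = 2.96e-17). The nucleosome-binding Hmgn1 had 2 UMIs in neutrophils, and the pooled lymphocyte level was 91.4 times as high (exact 95% interval 25.3 to 755). Cbx5, the heterochromatin protein HP1 alpha, was lower at 4.09, 1.64 and 3.46 against 38.0 to 45.5 (log2 -3.54).

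Genes of MHC class II presentation were lower in 12 and higher in 2 of 14 tested members (median log2 -3.69), a contrast with B cells, which present antigen. The chaperone chain H2-DMa stood at 4.99, 0 and 3.46 scaled CPM against 408 to 429 in B cells and 35.4 to 46.7 in T cells (log2 -5.03). The higher members were costimulators: Cd80 stood at 95.8, 96.8 and 107 against 4.10 to 5.38 in B cells (log2 5.43, SE 0.17, adjusted p = 1.51e-19). Cd86 stood at 48.1, 29.5 and 25.9, which overlaps 26.9 to 34.7 in B cells, and its log2 of 1.03 became -0.02 with plain totals. Cytoskeleton and motility genes were higher in 25 and lower in 1 of 28 tested members (median log2 1.77), with 21 and 6 on plain totals and 0 lower without replicate 1 or 3. The Src-family kinase Fgr stood at 1983, 1641 and 2112 against at most 33.4 (log2 6.90, SE 0.07, adjusted p = 1.34e-29), and the Rac activator Dock5 at 268, 281 and 271 against at most 14.9 (log2 5.80).

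Outside the lists and markers, the 10 genes with the highest log2 were Cstdc4, Vnn3, Agap1, Lrg1, Pla2g7, Scrg1, Il1f9, Hnmt, Bmx and Ppp1r3d, with log2 from 12.25 down to 10.42. Il1f9 is outside by symbol only, as the mediator list names this gene Il36g, a symbol with no row in the matrices. Cstdc4, a stefin-type protease inhibitor with close paralogs, stood at 661, 448 and 731 scaled CPM against means of 0.126 in B cells and 0.0460 in T cells. Lrg1, a secreted glycoprotein stored in granules, stood at 1139, 1362 and 1551 (log2 10.91, SE 0.10, adjusted p = 1.59e-30), Pla2g7, which degrades platelet-activating factor, at 3299, 2962 and 3006 (log2 10.82), and Il1f9, which encodes the cytokine interleukin-36 gamma, at 1083, 1255 and 1248 (log2 10.76). Ppp1r3d, which directs a phosphatase to glycogen, stood at 281, 297 and 323 (log2 10.42).

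The 10 genes with the lowest log2 were Kynu, Trbv14, Aff3, Fam169b, Trib2, Gramd3, Id3, Immp2l, Il27ra and Rasgrp1. Kynu, an enzyme of tryptophan breakdown, and the T cell receptor segment Trbv14 had 0 UMIs in neutrophils and were at least 71.3-fold and 63.6-fold lower on pooled scaled CPM, with a floor of 3 counts over the group. Id3, an inhibitor of E proteins in lymphocytes, stood at 2.72, 0 and 1.73 against means of 349 in B cells and 69.7 in T cells (log2 -6.19). Rasgrp1, a Ras activator of T cells, stood at 5.45, 4.92 and 0 against means of 194 and 375 (log2 -5.96).

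Against all other barcodes the markers were higher as well. That group held 1141 barcodes kept out by the Csf1r, B cell or T cell limits. Their median calprotectin was 292, 303 and 291 UMIs in replicates 1, 2 and 3. The levels and log2 values below include these barcodes, and their part in them was not tested. With the other barcodes held to a gate sum of 1 or less, 3409 genes were higher and 4873 lower. On the scaling of the fit against all other barcodes, S100a8 stood at 77472, 78979 and 84566 scaled CPM against 2106, 1173 and 954 (log2 5.92, SE 0.36, adjusted p = 1.46e-08). Retnlg stood at 5329, 8710 and 5221 against 152, 152 and 69.4 (log2 5.74, SE 0.25, adjusted p = 1.71e-09). Outside the lists by symbol, the 5 genes with the highest log2 were Il1f9 (5.92), Lrg1 (5.86), Chil1 (5.84), Amer2 (5.82) and Dhrs9 (5.78). Chil1, a chitinase-like granule protein, stood at 328, 416 and 332 against 8.13, 7.47 and 3.54. The 5 with the lowest log2 were Iglc3, Gga2, Chst3, Aff3 and Iglc1, of which Iglc3 and Iglc1 are immunoglobulin light chain genes and Gga2 is a sorting adaptor. Chst3, a sulfotransferase, stood at 0.392, 4.66 and 3.25 against 132, 202 and 335 (log2 -6.78).

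Among the lists, secondary and tertiary granule genes were higher in 13 of 17 against all other barcodes and 4 did not pass, and Fc, CD300 and Siglec receptors were higher in 21 and lower in 4 of 25. Chemoattractant receptors were higher in 14 and lower in 4 of 19, and NADPH oxidase subunits in 6 and 1 of 8. MHC class II genes were lower in 12 of 14 (median log2 -5.55) and translation genes in 20 of 20 (median log2 -1.73). Both comparisons share the neutrophil sums.

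The share of neutrophils with at least 1 UMI was taken after each cell was thinned to 1000 UMIs, which left out 4, 13 and 8 members, and is set beside the share in B and T cells, where free RNA gives a background. The commonest transcripts were found in most cells: S100a8 in 98.1% ± 0.890 (SD, n = 3), Il1b in 85.9% ± 1.80, Retnlg in 77.8% ± 7.02 and Ccl6, a chemokine, in 76.9% ± 3.88. S100a8 was also seen in 6.29% of B cells and 6.25% of T cells.

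Other transcripts were found in a part of the neutrophils at this depth. Lcn2 was found in 43.7% ± 2.80, Mmp8 in 42.7% ± 3.02, Padi4 in 42.4% ± 2.03, Fpr1 in 21.6% ± 1.95 and Cd177, a surface protein of granule membranes, in 8.80% ± 0.517, against at most 0.474% of B or T cells for each. Unthinned, the share was 59.2% for Lcn2, 63.1% for Mmp8, 70.1% for Padi4, 42.6% for Fpr1 and 18.4% for Cd177. These shares depend on depth, so a share alone does not mark a subset of cells. The lowest variance over mean of the 3 libraries, described below, is near 1 for sampling noise. It was 1.01 for Padi4, 1.15 for Fpr1, 1.51 for Cd177, 1.67 for Mmp8 and 3.03 for Lcn2. Cxcr4 was found in 52.6% ± 5.95 beside 32.6% of B cells and 17.0% of T cells. Immediate-early genes, which respond to handling as well as to stimulation, were common, with Dusp1 in 75.0% ± 5.27, Junb in 56.2% ± 2.69 and Fos in 22.8% ± 4.93, against 2.46%, 11.8% and 0.693% of T cells. Replicate 1 had the highest share for all 3 of these genes.

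Transcripts of immature and dividing cells were at or near background. Camp was found in 0.709% ± 0.365 of neutrophils against 0.774% of B cells, Mpo in 0.0266% against 0.322%, Elane in 0.0531% against 0.100%, and Mki67 in 0.0978% against 0.223%. Ltf was found in 1.66% ± 0.899 and Ngp in 2.36% ± 1.18, against 0.413% and 0.844% of B cells. Tnf was found in 1.66% ± 0.434, beside 1.42% of B cells and 1.29% of T cells. Ly6g, the transcript of the standard neutrophil surface antigen, was found in only 4.93% ± 0.905, against 0.0114% of B cells, which is a share of probes captured and not of the protein.

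**Figure D4:**
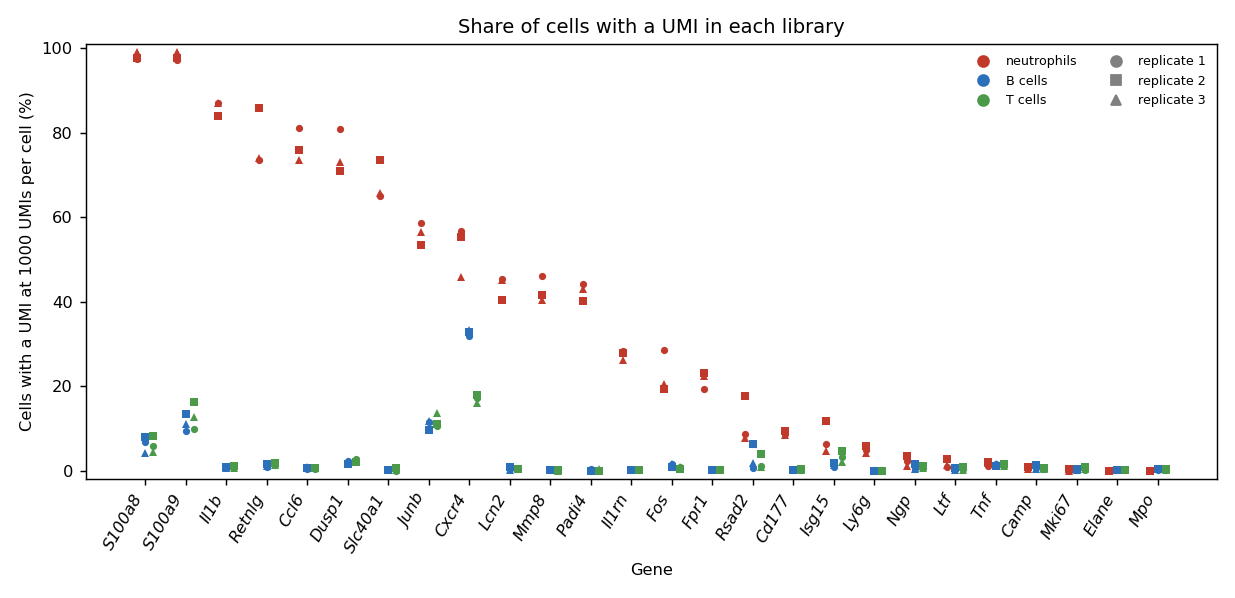
Percent of cells with at least 1 UMI (y axis) for 26 genes (x axis) after thinning each cell to 1000 UMIs, with 1 point per library and class. Genes fall from near 98.1% for S100a8 through about the middle of the scale for Cxcr4, Lcn2, Mmp8 and Padi4 to background for Camp, Mki67, Elane and Mpo.

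Between libraries most neutrophil genes were alike. Genes were ranked if they had 100 or more scaled CPM in at least 1 library and 20 or more neutrophil UMIs in each. Over these 2904 genes, the median ratio of the highest to the lowest library was 1.20 and the 95th percentile 1.65. The ratio exceeded 2 in 63 genes. Ltf, Camp and Ngp, described above, had fewer than 20 UMIs in replicate 3 and were not ranked. The 8 genes with the greatest ratios were all highest in replicate 2, led by the haemoglobin chains Hba-a2 (492, 18270 and 4749 scaled CPM), Hbb-bs (507, 13833 and 3893) and Hbb-bt (239, 6373 and 1407), with Alas2, Tsc22d1, Nrgn, Bpgm and Ube2l6 following at ratios of 18.0 to 10.1. Hba-a2 had a ratio of 37.2 in neutrophils, 28.3 in B cells and 34.3 in T cells, and the other haemoglobin chains and Alas2 also had ratios over 13 in both lymphocyte classes. Tsc22d1 had a ratio of 15.2 in neutrophils but 1.90 in B cells and 3.62 in T cells, Bpgm 10.8 beside 6.53 and 4.22, and Ube2l6 10.1 beside 6.17 and 14.1. Nrgn had ratios of 3.64 and 15.9 in B and T cells. No test of these differences was made. Replicate 2, with the highest levels, is also the library of the 9-week age.

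Genes chosen after their values were seen showed a second pattern in replicate 2. The interferon-stimulated Rtp4 stood at 297, 571 and 164 scaled CPM and Rsad2 (viperin) at 248, 576 and 197, and Cybb at 130, 238 and 69.1. At 1000 UMIs, Rsad2 was found in 8.69%, 17.6% and 7.83% of neutrophils, Isg15 in 6.37%, 11.7% and 4.64% and Ifit3 in 2.63%, 7.04% and 2.61%. B cells had 9.20, 102 and 31.0 scaled CPM of Rsad2, also highest in replicate 2. With 1 library per age, the part of age, animal or red cell RNA in this pattern was not tested.

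Within neutrophils, cell-to-cell spread was measured as the variance over the mean of thinned UMIs, which is near 1 for sampling noise alone. For a given relative spread this ratio rises with the mean, so its order is not one of relative spread. In replicate 1 the mean was 53.3 UMIs for S100a8 and 53.2 for S100a9, against 3.50 for Retnlg and 0.118 for Ccl9. Over 2628 genes with a mean of 0.05 UMIs or more in each library, the median of the lowest of the 3 library ratios was 1.01. After the haemoglobin genes, the greatest ratios were those of S100a9 (16.1, 20.6 and 15.3), S100a8 (17.0, 19.3 and 15.2), Retnlg (7.24, 6.51 and 6.18), Ccl9 (6.43, 7.44 and 5.19), Slfn4 (4.18, 5.37 and 4.00) and Il1b (3.52, 3.57 and 3.53). Apoe, Vim, Lcn2, Ifitm1, Slpi and Cdk2ap2 completed the first 15. With a gate sum of 20 or more, 12 of these 15 were again among the first 15, and the chemokine Ccl9 was not.

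**Figure D5:**
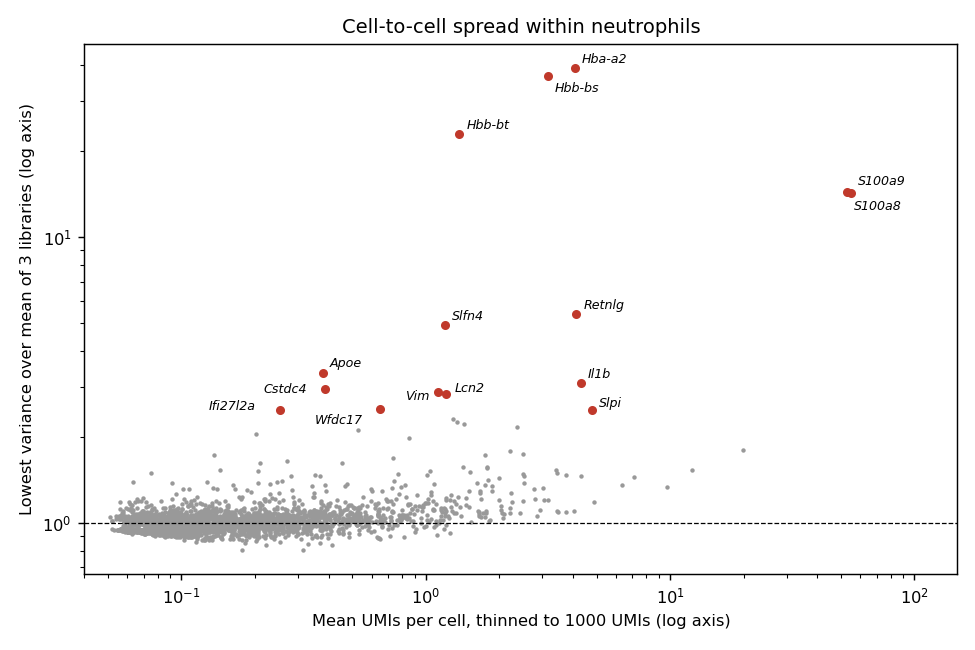
Lowest variance over mean of 3 libraries (y axis, log scale) against mean UMIs per cell (x axis, log scale) for each gene over neutrophils with a gate sum of 20 or more, thinned to 1000 UMIs. The dashed line is a ratio of 1, most genes lie along it, and the 15 genes with the greatest ratios are named, from Hba-a2 at 39.1 to Slpi at 2.48.

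The varying genes did not all vary together. Over 1215, 331 and 334 neutrophils with a gate sum of 20 or more, Pearson's r of log2(UMIs + 1) between S100a8 and S100a9 was 0.847, 0.865 and 0.875. It was 0.307, 0.317 and 0.334 between S100a8 and Retnlg and 0.237, 0.240 and 0.221 between S100a8 and Lcn2. Between S100a8 and Il1b it was -0.155, -0.256 and -0.153, and between Retnlg and Il1b it was -0.112, -0.185 and -0.197. Slfn4 was near 0 with S100a8 (0.0335, 0.0365 and 0.0331) and reached 0.230, 0.258 and 0.207 with the interferon-stimulated Ifi27l2a. These are descriptions over cells of the same library thinned to 1 depth, which share library, depth and a fixed UMI total, and they carry no test.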

How the data were processed

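Blood leukocytes were profiled in 3 libraries by probe-based capture of fixed single cells. The deposited matrices hold whole-number UMI counts per gene and barcode, made with Cell Ranger 7.1.0 per the file headers, for 19059 genes, and the barcode and gene lists beside them are deposited text. Build and probe set: not given in the sources used here. For this reason upstream sequences carry RefSeq's own coordinates.

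Gates, gene lists and tests were chosen with earlier results of these data known. The gates use the limits given in the report. B cells had 3 or more UMIs of their genes and T cells 2 or more. Both had a gate sum of 1 or less and at most 1 Csf1r UMI. Counts were summed per library and class (9 sums against lymphocytes, 6 against all other barcodes) and tested with edgeR 4.0.16 in R 4.3.3 (filterByExpr, TMM, robust quasi-likelihood, library as block, Benjamini-Hochberg adjusted p of 0.05). The script was tested on simulated data. Standard errors are the log2 value divided by the square root of F. Named genes were, per list, the 2 with the greatest log2 in each direction among called members that moved the same way in all 3 libraries at 20 or more scaled CPM in a class (its 2 most abundant where a list had none), the 10 outside the lists and markers in each direction by the same rule (5 against all other barcodes) at 100 or more, the 10 most abundant, the 8 that varied most between libraries, the 15 of greatest spread and the markers. The ranking between libraries took only genes with 100 or more scaled CPM in a library and 20 or more UMIs in each. Others are named as illustrations, chosen with their values known. Thinning used seed 11. Where a group had no UMI, the floor was 3 counts over the group. Near-identical paralogs (stefins, Hba, Sirpb1, Csf2rb, Ceacam) are uncertain, and 20 of 501 listed genes had no row under their symbol. Scrublet (scanpy 1.11.5) marked doublets at an expected rate of 0.06, which were kept.

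The library is a block because the classes of 1 library were captured together; the labels give no other pairing. Alternatives were plain totals, DESeq2 1.42.0, no filter, no block, each library left out, other gates, doublets or haemoglobin-rich barcodes removed, and thinning. Libraries held 11105, 5736 and 7029 barcodes, and intervals cover counting error only. Results of some listed genes are not reported here.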

Additional observations from a re-analysis of the deposited data

How the results depend on the processing

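Counts of called genes depended on the scaling. With plain library totals, neutrophils had 2000 genes higher and 7424 lower against lymphocytes, and 1657 higher and 7854 lower against all other barcodes. Of the genes named by rule alone, 3 called ones changed sign with plain totals: Cox5b (log2 -0.29), Cd86 (log2 -0.0159) and Hba-a2 (log2 -0.182). S100a4, not called before, was then lower (log2 -0.96). Of the 3761 genes higher against lymphocytes, 1768 were called higher in every alternative run, as were 3705 of the 4832 lower, but 1103 of the higher genes and 0 of the lower ones were called in the opposite direction in some alternative, as were 926 of the 3636 higher against all other barcodes and 2 of the 4731 lower. Leaving out each library gave 3232 to 3726 higher and 4336 to 4648 lower against lymphocytes, and 2905 to 3237 higher and 3980 to 4396 lower against all other barcodes. Without the library as replicate block the counts were 3725 and 4850, and 3667 and 4735. Of 1679 single-gene alternatives, 1672 kept their direction and side of the threshold. The 4 calls lost were Cd22 without replicate 2, Trbv14 without the block, and Hba-a2 without the block and with haemoglobin-rich barcodes removed; the cause was not tested. Shares of cells with a UMI moved in 66 of 245 alternatives by more than the spread between libraries, among them thinning to 500 UMIs (Lcn2 31.5%) and no thinning (Lcn2 59.2%). Median depths of 2589 to 2810 UMIs per neutrophil limit what a share near background can show.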
